A study of Mus musculus with 16 samples.

Results

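The 10 genes described here, Cst7, Itgax, Clec7a, Spp1, Gpnmb, Lpl, Axl, Igf1, Cd9 and Baiap2l2, are markers of the microglia that gather around amyloid plaques. They are the rows with these symbols among the 57010 genes of the count table. Microglia were isolated from the olfactory bulb (OB) of 2-month-old WT (C57BL/6J) mice and of APP-NL-G-F mice, called KI after the label of their libraries. In KI animals the amyloid-beta sequence of the App gene is humanised, and the gene carries 3 familial alterations, Swedish (NL), Arctic (G) and also Iberian (F). They sit in the App gene itself, so they are present in every cell and are not restricted to microglia. Each genotype was represented by 4 female and 4 male libraries, giving 16 in all. Cells were enriched from perfused, papain-digested tissue with magnetic beads against CD11b, a surface protein that other myeloid cells also carry. The labels do not say whether each library came from a separate mouse. Where they did not, the p-values measure technical spread only.

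Between 9052932 and 18117286 counts were assigned per library, and 18227 genes passed the filter on low counts (5 or more counts in 50% of libraries or more). All 10 marker genes were among them. In all 16 libraries Xist and Ddx3y matched the sex in the label. App had a mean of 419 ± 34.4 CPM in the WT and 399 ± 12.7 CPM in the KI group (SD, n = 8 each), which checks nothing about the knock-in, because counts per gene hold no base calls. The defining genes of microglia were abundant, with a length-scaled WT level of 483 CPM per kb for P2ry12 and 668 for Cx3cr1. CPM are counts divided by the TMM-scaled library total and multiplied by 1e6.

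Microglia that meet amyloid deposits take on a state often called disease-associated. It forms in steps: homeostatic genes are turned down and Apoe and Tyrobp rise early, and a later programme follows that needs the lipid-sensing receptor TREM2. The 10 markers belong to that later programme or accompany it. Their products act in different places. Itgax, Clec7a, Axl and Cd9 encode cell surface proteins, Spp1, Igf1 and Lpl encode secreted proteins, Cst7 and Gpnmb act in the lysosomal system, and Baiap2l2 encodes a protein that bends membranes. The study places the age of 2 months at the beginning of noradrenergic axon loss in the OB.

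Promoter sequences are shown for Clec7a and Axl and for Cst7 and Itgax, since these were the 2 pairs with the highest Pearson r across the libraries. Each line holds the 250 bases before the annotated start, read 5′ to 3′ on the strand of the gene, from RefSeq on GRCm38.p6, an older build than the GRCm39 to which the reads were aligned. Capitals mark GAGGAA, or TTCCTC on the other strand, a letter string bound by PU.1, the lineage factor of microglia. Other strings that PU.1 may bind were not searched for.
Clec7a (chr6:129472780-129473029, minus strand): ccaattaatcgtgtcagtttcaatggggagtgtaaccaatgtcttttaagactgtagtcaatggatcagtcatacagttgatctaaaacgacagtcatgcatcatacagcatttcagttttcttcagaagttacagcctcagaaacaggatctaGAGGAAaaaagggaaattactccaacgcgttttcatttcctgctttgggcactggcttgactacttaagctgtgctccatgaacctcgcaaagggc
Axl (chr7:25788734-25788983, minus strand): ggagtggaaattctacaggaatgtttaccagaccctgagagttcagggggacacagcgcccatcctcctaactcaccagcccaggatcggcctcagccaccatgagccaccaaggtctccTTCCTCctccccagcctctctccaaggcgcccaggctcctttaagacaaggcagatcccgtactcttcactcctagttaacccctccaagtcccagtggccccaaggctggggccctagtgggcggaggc
Cst7 (chr2:150570165-150570414, plus strand): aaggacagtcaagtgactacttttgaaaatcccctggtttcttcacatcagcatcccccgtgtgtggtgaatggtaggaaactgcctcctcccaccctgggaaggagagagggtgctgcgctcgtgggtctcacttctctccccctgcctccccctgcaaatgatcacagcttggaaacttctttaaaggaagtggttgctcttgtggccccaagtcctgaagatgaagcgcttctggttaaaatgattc
Itgax (chr7:128129300-128129549, plus strand): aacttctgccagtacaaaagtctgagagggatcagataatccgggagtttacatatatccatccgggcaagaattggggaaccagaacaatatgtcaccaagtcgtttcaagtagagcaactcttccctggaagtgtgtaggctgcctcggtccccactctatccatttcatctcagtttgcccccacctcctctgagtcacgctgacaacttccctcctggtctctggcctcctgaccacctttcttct

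RefSeq promoters were matched for 8 of the 10 genes, all except Lpl and Baiap2l2. In windows of 300 bases, which add 50 bases after the start, GAGGAA was found on either strand for 4 of the 8 genes, Spp1, Clec7a, Axl and Igf1. Spp1 and Clec7a have 2 windows each, and the string lies in 1 of those of Spp1 and in both of Clec7a. Counted by window it was in 5 of 10, and in 28.3% of all 32851 promoters of the table. CATGTG, a letter string bound by the MITF and TFE factors that drive lysosomal genes, was present for Cd9 and in 14.2% of all promoters. Neither strand of any of the 8 held CACGTG, the other string bound by these factors, which 7.2% of all promoters hold.

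The first question was whether OB microglia of young KI animals carry more of these markers than WT microglia. None of the 10 was called, and Lpl was the marker with the smallest p, higher in KI libraries by less than the fold limit. Genes were called differentially expressed where edgeR's quasi-likelihood test, with sex as a covariate, gave a log2 fold change beyond 0.5 in either direction and an FDR (Benjamini-Hochberg) under 0.1. By that rule 0 of the 10 markers were called, against 8.64% of all genes tested. At the FDR alone 1 marker, Lpl, was higher in KI microglia, where 14.8% of all genes pass in either direction. At an unadjusted p below 0.05 there were 3, Lpl, Igf1 and Baiap2l2, all above 0, beside 24.1% of all genes. DESeq2 and limma voom also called 0 markers. The median log2 fold change of the 10 was 0.05 with 6 above 0, and the median of all genes tested was 0.00 with 49.6% above 0.

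**Figure D1:**
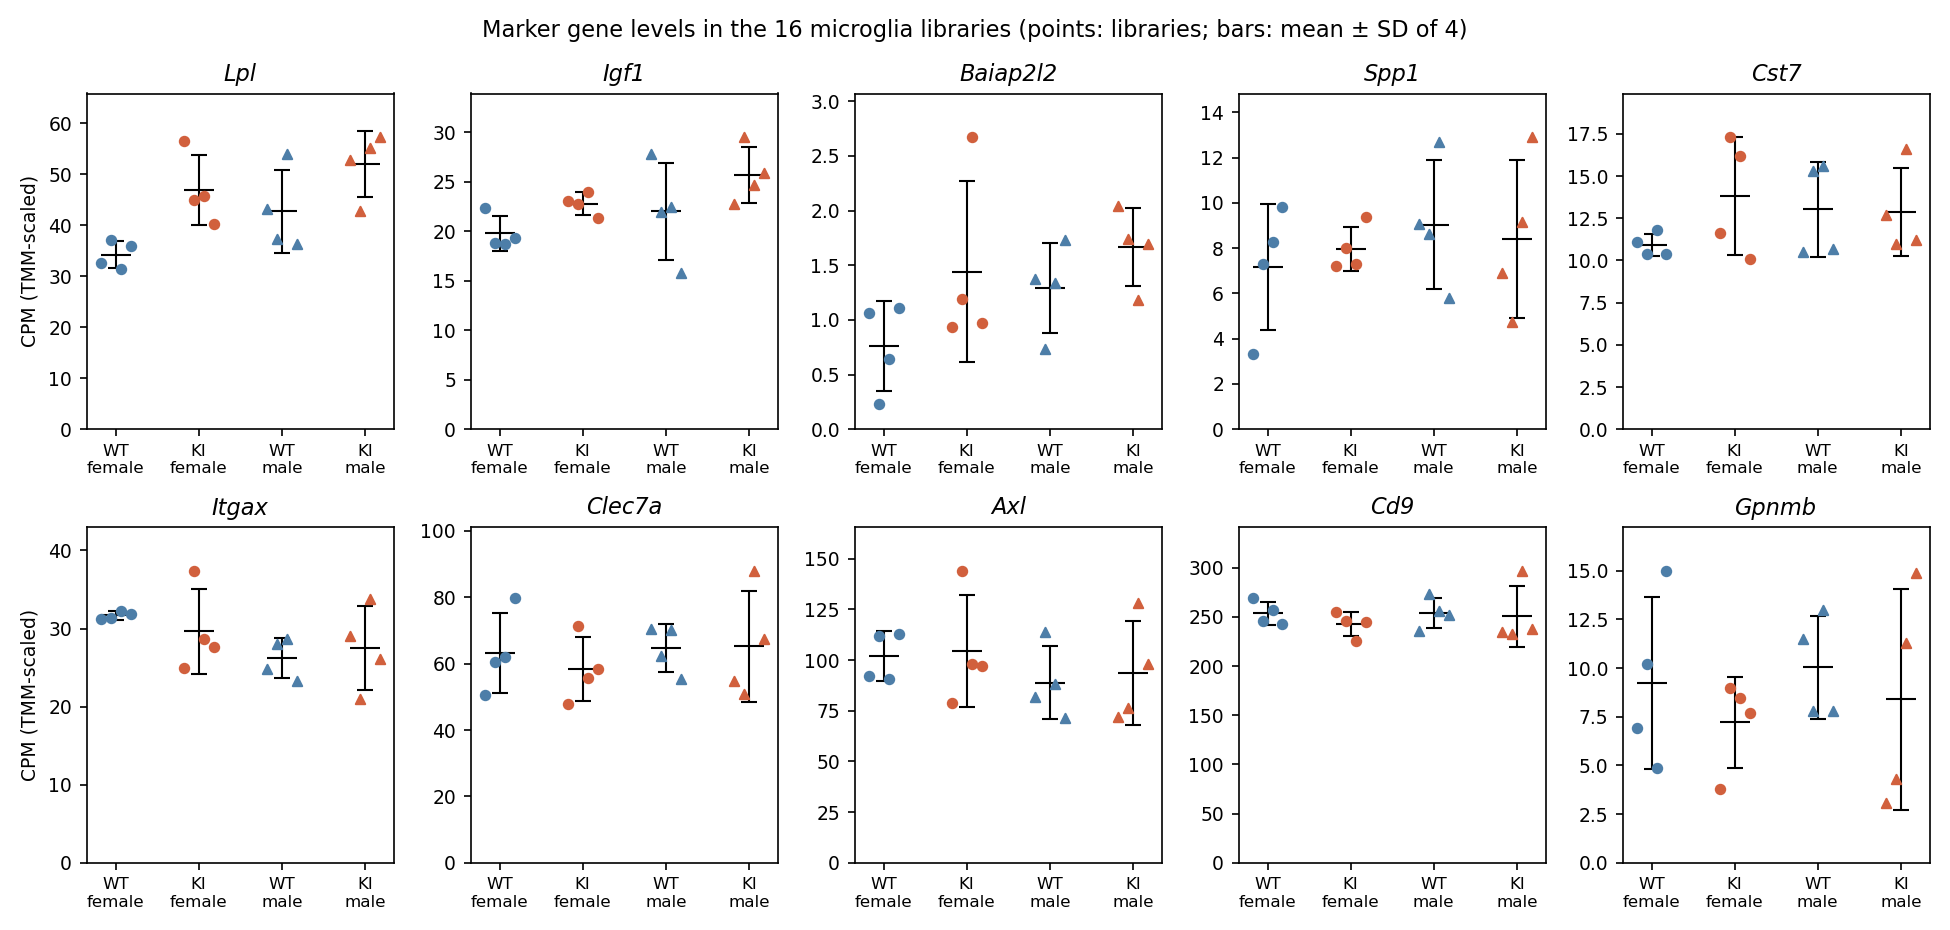
CPM of each marker gene (vertical axis, from 0) in the 16 libraries, by genotype and sex, with 1 point per library and bars for the mean ± SD of 4. Lpl separates WT females (31.4 to 37.0 CPM) from KI females (40.3 to 56.5 CPM), while the groups of the other 9 genes overlap within each sex.

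Lpl encodes lipoprotein lipase, a secreted enzyme that splits the triglycerides of lipoproteins and so supplies cells with fatty acids. The gene lies on GRCm39 at chr8:69284603-69360100 on the plus strand. In WT females it measured 32.5, 37.0, 31.4 and 36.0 CPM in replicates 1 to 4. KI females gave 56.5, 44.9, 45.7 and 40.3 CPM. Each KI female library thus lay above each WT female library, as happens in one direction or the other for 12.6% of all genes tested. WT males measured 43.2, 37.2, 54.0 and 36.3 CPM. In KI males the values were 52.7, 42.7, 55.1 and 57.2 CPM. The male ranges overlapped, because WT male replicates 1 and 3 stood among the KI values, and for 5.01% of all genes tested the male ranges did not overlap. Across both sexes all 8 KI libraries were above the WT median, which holds for 6.44% of all genes.

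Averaged over the sexes, the WT mean of Lpl was 38.4 ± 7.22 CPM and the KI mean 49.4 ± 6.71 CPM (SD, n = 8 each). Its log2 fold change was 0.37 with a standard error of 0.0889 and an edgeR FDR of 0.0129, and an exact permutation of genotype within sex gave a two-sided p of 0.00449. The 95% interval of the log2 fold change ran from 0.19 to 0.56 and so includes the limit of 0.5 that a call needs. In females the log2 fold change was 0.46 (edgeR FDR 0.0407), where 9.42% of all genes pass the FDR alone. In males it was 0.29 (edgeR FDR 0.384). The interaction of genotype and sex was 0.17 on the log2 scale, with a 95% interval from -0.20 to 0.54 (edgeR FDR 0.987). Leaving out WT female replicate 2, WT female replicate 4 or KI female replicate 4 put Lpl past the limit of 0.5 in females, at 0.51, 0.51 and 0.54, and without KI female replicate 1, WT female replicate 1 or WT female replicate 3 its FDR in females was 0.119, 0.127 and 0.101.

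Most markers of neurons and oligodendrocytes were higher in KI libraries. Summed over 10 neuron markers, the level was 395 to 553 CPM in WT and 495 to 728 CPM in KI libraries. Of the 10, 8 were above 0 and 2 below, 5 were higher at the FDR and 0 were called. Summed over 7 oligodendrocyte markers it was 232 to 431 CPM in WT and 284 to 418 CPM in KI libraries. At the FDR 3 of the 7 were higher, and the scarcest, Mog, was called (log2 fold change 0.77, edgeR FDR 0.0335). Of all genes 14.8% pass the FDR and 8.64% are called. Adjusted over 13 scores, the exact permutation p was 0.0849 for neurons, 0.133 for oligodendrocytes and at least 0.214 for the others. Within groups, Lpl showed no detectable correlation with the neuron score (r = -0.01, Spearman rho = -0.04, n = 16, permutation p = 0.985 and 0.902; r = 0.09 without the 2 libraries farthest from the median). For the oligodendrocyte score r was 0.16 (rho = 0.24, permutation p = 0.545 and 0.374; 0.08 without the 2 farthest). Apart from these values, the part of other cells in the Lpl difference was not tested. In bulk libraries, fewer cells of a type and less RNA per cell cannot be told apart.

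**Figure D2:**
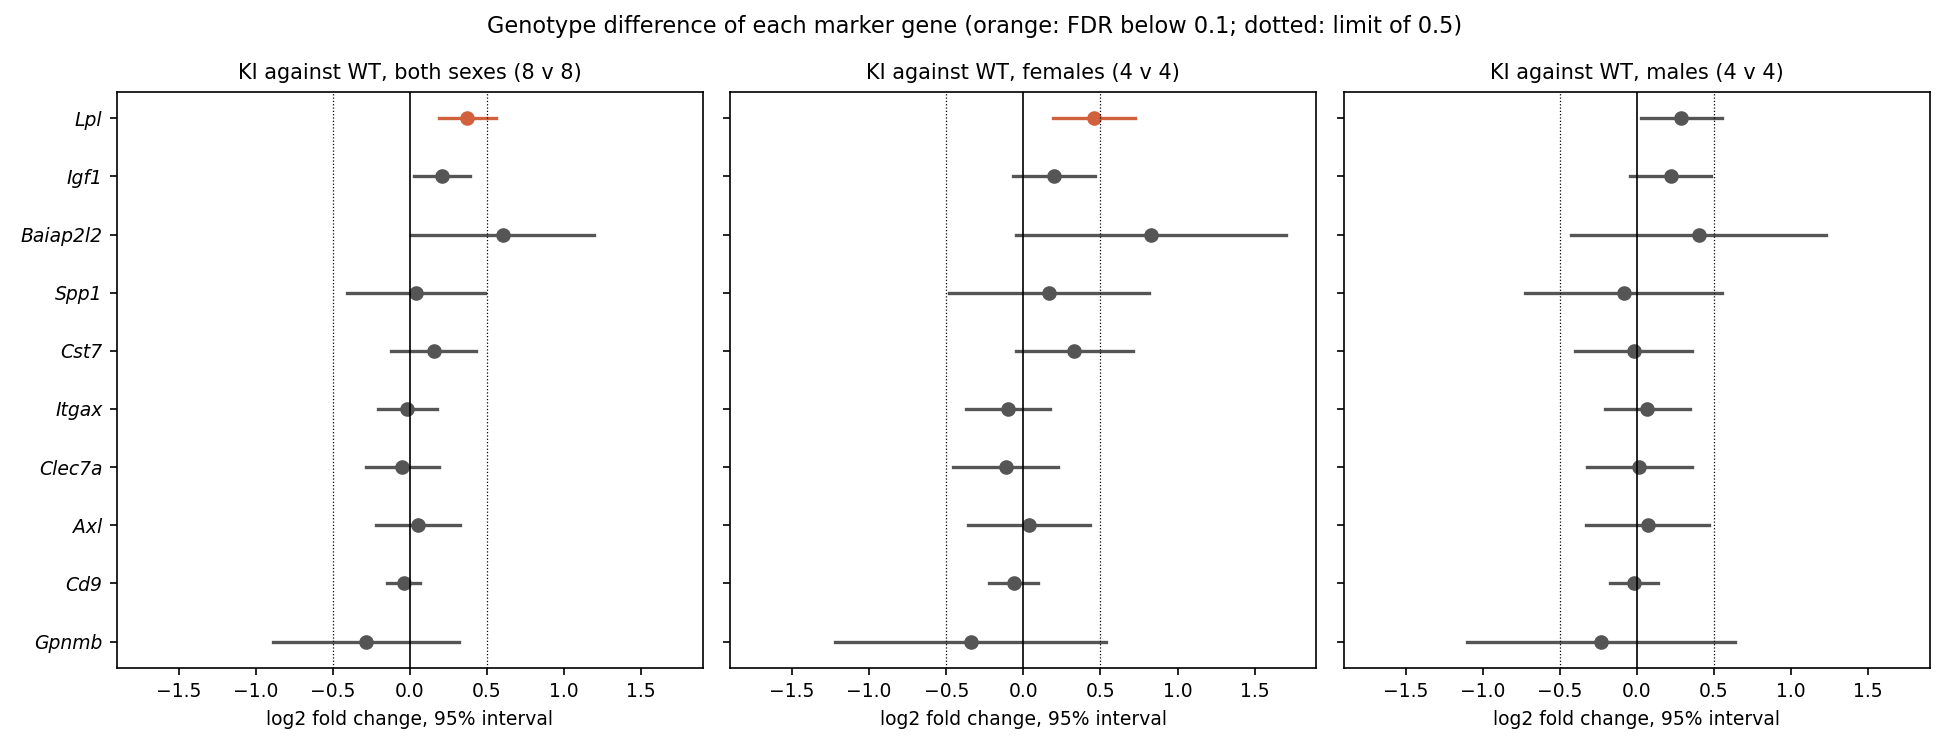
Log2 fold changes, KI against WT, of the 10 marker genes with their 95% intervals (horizontal axis), over both sexes and in each sex, with the limit of 0.5 dotted and genes under an FDR of 0.1 in orange. Lpl is the orange point over both sexes (0.37) and in females (0.46), and no gene is orange in males.

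Igf1 encodes insulin-like growth factor 1, a growth factor that microglia supply to neurons and to cells of the oligodendrocyte lineage (chr10:87693642-87772904, plus strand). WT females measured 22.4, 18.8, 18.7 and 19.3 CPM and KI females 23.1, 22.8, 24.0 and 21.3 CPM. WT males gave 27.8, 22, 22.5 and 15.8 CPM and KI males 22.8, 29.5, 24.7 and 25.9 CPM. As for Lpl, all 8 KI libraries lay above the WT median, but 4 of the 8 WT libraries stood inside the KI range. The log2 fold change of 0.21 (standard error 0.0871, 95% interval of the fold 1.02 to 1.31) did not pass the adjustment, with an edgeR FDR of 0.144 and an exact permutation p of 0.0237. Without WT male replicate 1 it was 0.28 with an FDR of 0.0351, the only 1 of 25 alternatives with an FDR below 0.1. The highest FDR among these alternatives was 0.252. Igf1 also followed the border macrophage score within groups (r = 0.79, rho = 0.61, n = 16, permutation p = 0.00503 and 0.035, adjusted over 130 relations 0.163 and 0.608; r = 0.66 without the 2 farthest), and that score differed by 0.08 on the log2 scale between the genotypes (exact permutation p = 0.54).

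Spp1 encodes osteopontin, a secreted phosphoprotein that binds integrins and CD44 (chr5:104582165-104589235, plus strand). Its level ran from 3.31 to 12.7 CPM in WT, with a median of 8.44, and from 4.72 to 12.9 CPM in KI libraries, with a median of 7.65. WT female replicate 1 was the lowest and KI male replicate 4 the highest library. The log2 fold change was 0.04 (edgeR FDR 0.948), and the interval of the fold, from 0.754 to 1.4, left room for a moderate change in either direction. A gene on the same strand, Gm42793, shares 362 exonic bases with Spp1 but held only 35 counts in the 16 libraries together.

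The genes of the 4 surface proteins differed little in their mean CPM. Itgax encodes CD11c, the alpha chain of a beta2 integrin (chr7:127728668-127749829, plus strand), with means of 28.9 ± 3.39 CPM (WT) and 28.6 ± 5.12 CPM (KI; SD, n = 8 each) and a fold between 0.865 and 1.13 (95% interval). Cd9, a tetraspanin that organises other membrane proteins (chr6:125437210-125471778, minus strand), stood at 254 ± 12.5 and 247 ± 22.1 CPM, with a fold between 0.902 and 1.05, the narrowest interval of the 10 genes. Clec7a encodes Dectin-1, a receptor for fungal beta-glucans (chr6:129438554-129449742, minus strand). Its means were 63.9 ± 9.25 CPM in the WT and 61.8 ± 13.2 CPM in the KI group, with a fold between 0.82 and 1.14. Axl, a receptor tyrosine kinase that recognises dying cells through GAS6 (chr7:25456535-25488329, minus strand), stood at 95.5 ± 16 and 99.0 ± 25.5 CPM, with a fold between 0.858 and 1.25. The edgeR FDR of these 4 genes lay between 0.69 and 0.948, and for each of them the ranges of the genotypes overlapped in both sexes.

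Single KI libraries carried the highest levels of the 4 surface markers and of Cst7, which encodes an inhibitor of lysosomal proteases. KI female replicate 2 was highest of the 16 for Cst7 (17.3 CPM), Itgax (37.4 CPM) and Axl (144 CPM). KI male replicate 3 was highest for Clec7a (88.0 CPM) and Cd9 (297 CPM). The lowest levels of Itgax (21.0 CPM, KI male replicate 2), Clec7a (48.0 CPM, KI female replicate 1), Cst7 (10.1 CPM, KI female replicate 4) and Cd9 (226 CPM, KI female replicate 3) were in KI libraries as well. For Cst7, Itgax, Clec7a and Cd9 the highest and the lowest of the 16 libraries were thus both KI libraries, and for Axl the lowest was WT male replicate 4 (71.4 CPM). Each of the remaining markers also had a WT library at its highest or lowest level. How often both extremes are KI libraries over all genes was not computed, and a difference in spread between the genotypes was not tested.

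Cst7 encodes cystatin F, an inhibitor of lysosomal cathepsins (chr2:150412284-150420864, plus strand). The WT mean was 12 ± 2.19 CPM and the KI mean 13.3 ± 2.89 CPM (SD, n = 8 each), with 7 of 8 KI libraries above the WT median. The log2 fold change was 0.16 over both sexes (edgeR FDR 0.522), 0.33 in females and -0.02 in males, and the difference between the sexes did not pass the test (0.35, 95% interval -0.19 to 0.89, edgeR FDR 0.969). Gpnmb encodes a transmembrane glycoprotein of lysosomes (chr6:49013426-49047863, plus strand). WT females gave 6.94, 10.2, 4.85 and 15.0 CPM, KI females 3.81, 8.96, 8.44 and 7.71 CPM, WT males 11.5, 7.82, 13 and 7.82 CPM, and KI males 3.06, 4.3, 11.3 and 14.9 CPM. The KI males alone cover nearly the whole range of the 16 libraries. Its log2 fold change was -0.29 with a standard error of 0.288 (edgeR FDR 0.606). It was -0.12 without WT female replicate 4, -0.15, -0.18 and -0.17 without KI male replicate 1, KI male replicate 2 and KI female replicate 1, and -0.49 without KI male replicate 4.

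Baiap2l2 encodes an I-BAR protein, which shapes membrane protrusions together with actin (chr15:79142383-79169737, minus strand). It was the scarcest of the markers, with 2 to 31 counts per library. WT females measured 1.06, 0.231, 0.642 and 1.11 CPM and KI females 0.937, 1.19, 2.67 and 0.973 CPM. WT males measured 1.37, 0.731, 1.34 and 1.73 CPM and KI males 2.04, 1.74, 1.18 and 1.69 CPM. The WT female replicate 2 value rests on 2 counts, fewer than the 3 that a count of 0 allows. The log2 fold change of 0.60 was the largest of the 10 and passed the limit of 0.5, but its 95% interval ran from 0.01 to 1.20 and its edgeR FDR was 0.2 (exact permutation p = 0.0535). It was 0.39 without KI female replicate 3 and 0.49 without WT female replicate 2, both under the limit. In females it was 0.83, and 0.37 without KI female replicate 3. Within groups its level was correlated with the neuron score (r = 0.73, rho = 0.65, n = 16, permutation p = 0.00437 and 0.0168, adjusted 0.163 and 0.545; r = 0.63 without the 2 farthest), which is higher in KI libraries by 0.24 on the log2 scale (exact permutation p = 0.00653). Against the dendritic cell score r was -0.70 (rho = -0.71, permutation p = 0.00181 and 0.00245, adjusted 0.163 and 0.318; -0.67 without the 2 farthest), and that score differed by -0.18 between the genotypes (exact permutation p = 0.326). The part of either cell type in the Baiap2l2 difference was not tested.

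The sexes were then compared. In females 0 of the 10 markers were called for genotype, against 7.15% of all genes, and in males 0 against 0.252%. For the genotype-by-sex interaction 0 were called, against 0.0274% of all genes, and DESeq2 and limma voom also gave 0. At an unadjusted p below 0.05 the interaction had 0 markers, where 1083 of the 18227 genes tested pass. Females and males had 1 each, Lpl in both, where 3792 genes pass in females and 2126 in males. Between females and males over both genotypes 0 were called, against 0.0604%. Lpl was lower in females (log2 fold change -0.23, 95% interval -0.42 to -0.04) without passing the adjustment (edgeR FDR 0.714). It was the single marker with an unadjusted p below 0.05 there, where 1195 of the 18227 genes pass. Itgax was 0.19 higher in females (edgeR FDR 0.759). For genotype, endothelial markers had a median log2 fold change of -0.96 in females, where 6 of 8 were called lower. In males the median was 0.65 and 0 were called. For the interaction 0 of the 8 passed the FDR. An unadjusted edgeR p below 0.05 was found for 6 of the 8, and for 1083 of the 18227 genes tested. Their summed level ran from 92.9 to 200 CPM in WT females and from 84.1 to 104 CPM in KI females. In males it ran from 66.1 to 78.7 CPM in WT and from 80.8 to 111 CPM in KI libraries.

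Spread within groups differed widely among the markers. The biological coefficient of variation was 0.392 for Gpnmb, higher than for 95.6% of all genes tested, 0.299 for Baiap2l2 and 0.285 for Spp1. Axl, Cst7 and Clec7a followed at 0.183, 0.174 and 0.158. Itgax, Lpl and Igf1 lay between 0.115 and 0.125, near the median of 0.134 over all genes, and Cd9 was lowest at 0.0802. The order changes when each value is divided by the trend for genes of similar level. This ratio was 2.4 for Gpnmb, 1.84 for Axl, 1.71 for Spp1 and 1.55 for Clec7a. It was 1.09 for Baiap2l2, and for the remaining markers it lay between 0.783 (Cd9) and 1.2 (Cst7). The standard errors of the log2 fold change were 0.288 for Gpnmb, 0.283 for Baiap2l2, with 2 to 31 counts per library, and 0.213 for Spp1. That of Gpnmb is about as large as its log2 fold change of -0.29.

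Part of this spread was shared. With each group centred on its mean, 35 of the 45 pairs of markers were positively correlated over the 16 libraries. Clec7a and Axl had r = 0.78 (rho = 0.74, permutation p = 0.00269 and 0.00651, adjusted over the 45 pairs 0.105 and 0.0735), and r = 0.72 without the 2 libraries farthest from the median. Cst7 and Itgax also had r = 0.78 (rho = 0.85, permutation p = 0.00473 and 0.0013, adjusted 0.105 and 0.0585; r = 0.65 without the 2 farthest). Clec7a followed Gpnmb at r = 0.76 (rho = 0.74, permutation p = 0.0113 and 0.0135, adjusted 0.105 and 0.122; 0.69 without the 2 farthest) and Spp1 at r = 0.71 (rho = 0.79, permutation p = 0.0116 and 0.00338, adjusted 0.105 and 0.0735; 0.73 without the 2 farthest). Gpnmb and Axl had r = 0.66 (rho = 0.76, permutation p = 0.0221 and 0.00653, adjusted 0.142 and 0.0735; 0.53 without the 2 farthest). No pair passed an adjusted p of 0.05, and 4 were below 0.1 by Spearman's rho and 0 by Pearson's r. None of the genes of these pairs had an unadjusted p below 0.05 for genotype, while Lpl, Igf1 and Baiap2l2, which did, were less closely correlated with them.

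**Figure D3:**
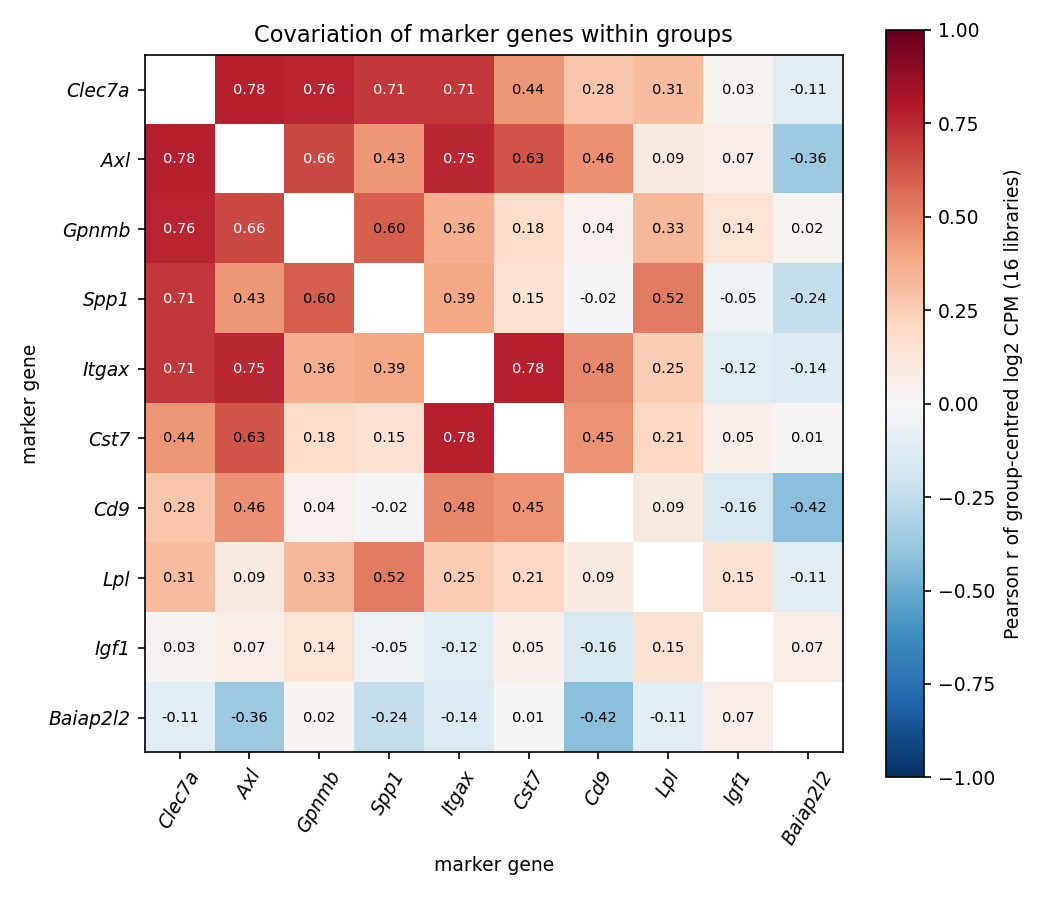
Pearson r between each pair of marker genes over 16 libraries, after log2 CPM were centred on the mean of each genotype and sex group (colour scale). The highest values, up to 0.78, lie among Cst7, Itgax, Clec7a, Axl, Gpnmb and Spp1, though Cst7 with Spp1 has 0.15. Lpl with Spp1 has 0.52, and Baiap2l2 with Cd9 the lowest value, -0.42.

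The genes most like each marker across the libraries were taken by the same measure, the 3 highest r over 16 group-centred libraries among all genes tested. Axl was nearest to C4b (r = 0.92), a complement component, Fgl2 (0.91) and H2-K1 (0.9), a class I antigen-presenting molecule. Gpnmb was nearest to Dna2 (0.92), Runx3 (0.89) and Cd300lf (0.89). Igf1 was nearest to Tslp (0.96), a cytokine gene, Myrf (0.89), a transcription factor of oligodendrocytes, and Vav3 (0.87). Clec7a had Gm12902 (0.93), Ddias (0.93) and Pdgfa (0.9), Cd9 had Edem1 (0.92), Capzb (0.91) and Eif3m (0.9), and Spp1 had Gm15464 (0.91), Traf1 (0.88) and Rnd1 (0.84). Cst7 had Tmem126a (0.88), Brix1 (0.85) and Rnase6 (0.85), Itgax had Gnptab (0.87), ENSMUSG00000120162 (0.85) and 1600022D10Rik (0.84), and Baiap2l2 had Hsf1, Zxdc and Gm42842 (0.89 each). For Lpl the nearest were ENSMUSG00000120012 (0.8), Rhno1 (0.8) and Gm12737 (0.78). These are the highest of many values, are given as a description, and include genes near 1 CPM. No marker was among the 3 nearest genes of another.

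Levels between genes were compared per kb of exonic length in the 8 WT libraries. Cd9 was far ahead at 119 ± 5.89 CPM per kb (SD, n = 8), at the 98.9th percentile of the genes tested. Clec7a followed at 24.2 ± 3.51, Axl at 10.4 ± 1.74, Cst7 at 8.64 ± 1.58 and Itgax at 5.96 ± 0.699 CPM per kb. Then came Lpl at 3.14 ± 0.59, Spp1 at 2.85 ± 0.977, Igf1 at 2.05 ± 0.353 and Gpnmb at 1.45 ± 0.51 CPM per kb. Baiap2l2 was last at 0.375 ± 0.174, at the 17.7th percentile. The WT ranges of Axl and Cst7 overlapped, as did those of Lpl and Spp1, Spp1 and Igf1, and Igf1 and Gpnmb, while the other neighbours in this order were apart. Lengths are the union of all annotated exons, up to 12225 bases for Lpl, so genes with long rarely used exons read low on this scale.

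**Figure D4:**
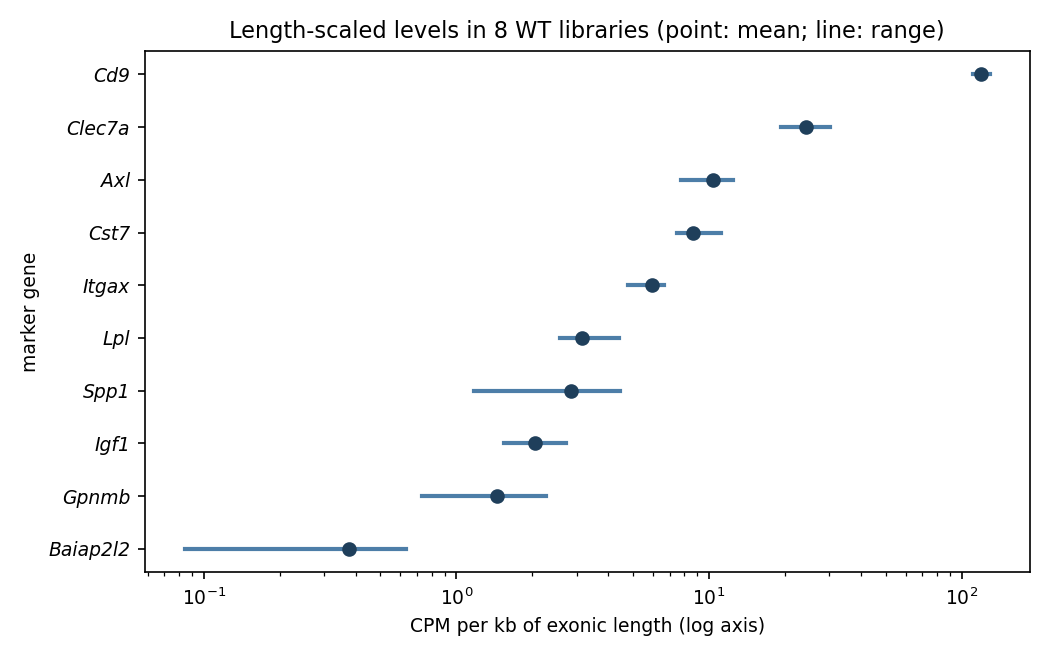
Length-scaled levels of the 10 marker genes in 8 WT libraries, in CPM per kb of exonic length on a log axis, with the mean as a point and the range as a line. Cd9 lies at 119 and Baiap2l2 at 0.375 CPM per kb, with the other 8 genes between 1.45 and 24.2.

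Other genes of the same programme were then examined. Of 8 early disease-associated genes that do not need TREM2, such as Apoe and Tyrobp, 0 were called, with a median log2 fold change of -0.04. Of 30 other late genes 28 were tested. Over both sexes their median was -0.06 and 2 fell, both chemokines, a share near the 8.64% of all genes called. In females 3 late genes were called lower, beside 7.15% of all genes, and in males 0, beside 0.252%. For the interaction 0 late genes passed the FDR. Ccl3 went from 489 ± 113 CPM in WT to 245 ± 107 CPM in KI libraries (SD, n = 8 each), that is by -0.98 on the log2 scale (edgeR FDR 0.0093). Ccl4 went from 393 ± 107 to 228 ± 93.2 CPM (-0.77, edgeR FDR 0.0299). Over both sexes the number of late genes called was 4 without KI male replicate 3 and 5 without KI male replicate 4. It was 4 with a replicate block, and all of these were lower. None of the 15 homeostatic genes was called, and their median was 0.01. Their summed level ran from 23400 to 27700 CPM in WT and from 23500 to 27600 CPM in KI libraries.

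For the lists that follow, 14.8% of all genes tested passed the FDR alone, and the counts of 1 or 2 genes per list are given beside that share as a description. Among the 7 genes of TREM2 signalling 0 were called and 2 were lower at the FDR, the adaptor Blnk (-0.23, edgeR FDR 0.00978) and the phosphatase Inpp5d (-0.14, edgeR FDR 0.0787). The 9 genes of CLEC7A signalling had 0 called and 2 lower at the FDR, Bcl10 (-0.36, edgeR FDR 0.00267) and Prkcd (-0.20, edgeR FDR 0.0255), and 8 of the 9 were below 0. Of 5 beta2 integrin genes tested beside Itgax, the common beta chain Itgb2 (-0.14, edgeR FDR 0.0381) and the activator Fermt3 (-0.16, edgeR FDR 0.068) were lower at the FDR. Of 4 ligands and receptors around AXL, Tyro3 was higher at the FDR (0.42, edgeR FDR 0.0753), from 17.1 ± 4.16 to 22.7 ± 4.23 CPM. Of 8 osteopontin receptors Itga5 was lower at the FDR (-0.18, edgeR FDR 0.0848), and of 10 tetraspanins and CD9 partners Cd37 was (-0.16, edgeR FDR 0.0585). Around Gpnmb, its binding partner Sdc4 (-0.49, edgeR FDR 0.03) and the lysosomal factor Tfe3 (-0.18, edgeR FDR 0.0213) were lower at the FDR among 6 genes. Sdc4 lay just inside the limit of 0.5 and passed it in 8 of 16 fits with a single library left out. In females 1 of these 6 genes was called lower, beside 7.15% of all genes, and in males 0. None of the 11 tested partners of lipoprotein lipase, the 12 genes of the IGF1 axis, the 8 cystatins and cathepsins or the 3 I-BAR relatives passed the FDR over both sexes, with medians of -0.01, -0.04, -0.06 and 0.03. In females Igfbp2 and Igfbp7, binding proteins of the IGF1 axis, were called lower (-0.83 and -1.06, edgeR FDR 0.00494 and 0.00959), where 7.15% of all genes were called. In males they stood at 0.37 and 0.54 (edgeR FDR 0.412 and 0.415), and the interaction did not pass the adjustment (-1.21 and -1.60, edgeR FDR 0.15 and 0.19). In the same female comparison 6 of 8 endothelial markers were called lower, with a median of -0.96, and 3 of 8 astrocyte markers, with a median of -0.58, and their part in the Igfbp2 and Igfbp7 values was not tested.

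The other cell type markers that the beads could have carried along were low beside the homeostatic genes. Over both sexes, summed levels reached at most 1190 CPM for astrocytes, 849 CPM for border macrophages, 200 CPM for endothelial cells, 196 CPM for OB projection neurons, 92.8 CPM for olfactory ensheathing cells, 92.7 CPM for pericytes and fibroblasts, 30.9 and 31.1 CPM for monocytes in WT and KI, 29.7 CPM for oligodendrocyte precursors, 29.1 CPM for dendritic cells and 26.4 CPM for neutrophils. Of 13 scores, 3 had an unadjusted exact permutation p below 0.05, neurons (0.24 on the log2 scale, p = 0.00653, adjusted over the 13 scores 0.0849), oligodendrocytes (0.38, p = 0.0204, adjusted 0.133) and oligodendrocyte precursors (0.21, p = 0.0494, adjusted 0.214), all higher in KI libraries. Of 130 relations between a marker and a score, 0 passed an adjusted p of 0.05. Axl followed the dendritic cell score at r = 0.75 (rho = 0.73, n = 16, permutation p = 0.00503 and 0.00876, adjusted 0.163 and 0.484; 0.73 without the 2 farthest).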

How the data were processed

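Reads were paired-end, from rRNA-depleted stranded libraries. The authors used STAR for alignment to the GRCm39 genome, to which a human App sequence had been added, with gene models of gencode vM32, and deposited raw counts per gene. The strand setting of the counting is not given in the sources used here. Where genes overlap on opposite strands (Gpnmb, Lpl and Cd9), reads of both may be mixed.

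Counts were analysed in R 4.3.3 with edgeR 4.0.16 (TMM, glmQLFit with a trended dispersion, glmQLFTest), with genotype and sex as additive terms, and with the 4 groups for contrasts within a sex and the interaction. Genes were tested where 50% of libraries or more held 5 or more counts, and p-values were adjusted over all of them. A call needed a log2 fold change beyond 0.5 in either direction and an FDR under 0.1. Log2 CPM carry a prior count of 2. Scores are means of log2 CPM over a list. Exact permutations exchanged genotype within sex (4900 arrangements), and correlations used 100000 permutations within groups. The procedure was tested on simulated data. Library totals of 9052932 to 18117286 limit how precisely scarce genes are measured, and a count of 0 allows up to 3 counts. No libraries held the same counts, and the closest of 24 replicate pairs differed by a chi-square of 3.05 per degree of freedom, above sampling noise. Gene positions and exonic lengths came from a GRCm39 annotation that matched 96.8% of the genes in the table.

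Members and gene lists were chosen with earlier results of these data known. The genes named include the 10 markers and the 3 nearest genes of each. From lists other than cell type markers, genes that passed the FDR over both sexes are named. Only Igfbp2 and Igfbp7 were added for a call in females. The 3 late disease-associated genes and the 1 gene of the GPNMB list called in females are given as counts, and not all of them are named. Alternatives were RLE and upper quartile normalization, no filter and a stricter one, DESeq2 1.42.0, limma voom 3.58.1, a robust dispersion, a replicate block, no sex term, other thresholds and leaving out each library in turn.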

Additional observations from a re-analysis of the deposited data

Results flagged for a closer look

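Dixon's test at the 95% level picked out a single library in 3 of 40 groups of 4, where chance gives about 2. Each value in parentheses is the distance from that library to its nearest neighbour, divided by the range of the group. WT female replicate 1 was highest of its group for Igf1, at 22.4 CPM against 18.7 to 19.3 (0.836). KI male replicate 3 was highest for Cd9, at 297 CPM against 233 to 238 (0.925). KI female replicate 3 was highest for Baiap2l2, at 2.67 CPM against 0.937 to 1.19 (0.851), and holds the 31 counts that are the largest number for this gene. The cause of these single values was not tested.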

How the results depend on the processing

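Lpl kept its direction and an FDR below 0.1 over both sexes in all 25 alternatives, with log2 fold changes from 0.33 to 0.45 and FDR values from 6.09e-05 to 0.0313. The number of markers called was 0 over both sexes, in males, in the interaction and between the sexes in every fit with a library left out, and ranged from 0 to 1 (Lpl) in females. With the FDR alone it was 1 over both sexes and 1 in females. In males the FDR of Lpl, 0.384 as reported, was 0.0678 without a filter on low counts. Baiap2l2 has no value under the stricter filter.

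Counts over all genes moved more. Over both sexes 830 genes were called with at least 10 counts in every library and 2692 with the FDR alone. In females the count was 2136 without a filter, 734 with the stricter filter and 833 at an FDR of 0.05. In males it was 880, 22 and 8 for these settings, 276 with DESeq2 and 84 with limma voom. The interaction gave 470, 1 and 2, 81 with DESeq2, 1 with limma voom and 3 with the upper quartile normalization. Between the sexes it was 57 without a filter and 3 with the stricter one. Leaving out 1 library gave 1101 to 2187 genes over both sexes, 594 to 2110 in females, 5 to 603 in males (highest without KI male replicate 3), 1 to 43 in the interaction (highest without WT female replicate 4) and 5 to 9 between the sexes. The cause was not tested.

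Among the gene lists over both sexes, the late disease-associated genes had 4 calls without a filter and between 2 and 5 with a library left out. The GPNMB list had 0 to 1. With the FDR alone there was 1 gene each around AXL, the osteopontin receptors and the tetraspanins, and there were 2 each for CLEC7A signalling, beta2 integrins, the GPNMB list and TREM2 signalling.

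The labels do not say whether replicate numbers pair the libraries, and no chance level was computed for the values that follow. Of 24 pairs of libraries with the same number, 8 had a correlation of deviations above 0.1. Among the 4 numbers, 8 of 16 libraries were on average closest to libraries of their own number. With the number as a replicate block, 0 markers were called in any comparison, Lpl had a log2 fold change of 0.37 over both sexes, 1562 genes were called over both sexes, 3 in the interaction, and the late disease-associated list had 4 calls. The Gpnmb interaction, -0.11 in the fit reported, was 0.069 with the block and 0.149 with limma voom.

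Directions turned with a library left out for small effects without a call. Over both sexes the log2 fold changes ranged from -0.031 to 0.124 for Axl, -0.125 to 0.025 for Clec7a, -0.065 to 0.037 for Itgax and -0.083 to 0.149 for Spp1. Between the sexes they ranged from -0.041 to 0.015 for Cd9 and -0.348 to 0.025 for Gpnmb. The interaction ranged from -0.213 to 0.164 for Axl, -0.028 to 0.675 for Baiap2l2, -0.062 to 0.059 for Cd9, -0.225 to 0.055 for Clec7a, -0.37 to 0.357 for Gpnmb and -0.137 to 0.122 for Igf1.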
